A study of Mus musculus with 14 samples.

Results

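Mitochondrial ribosomal protein genes encode the protein part of the ribosome inside mitochondria, a particle that differs from the ribosome of the cytosol. The proteins are made in the cytosol from nuclear genes, carried into the organelle and assembled on ribosomal RNAs that mitochondrial DNA encodes, and the finished particle translates the few mRNAs of the respiratory chain that mitochondria still make. A small subunit reads the mRNA and a large subunit joins the amino acids, some proteins have counterparts in bacterial ribosomes, and others were gained in mitochondria. In other mammalian cells, mTORC1 is known to promote the translation of mRNAs for mitochondrial proteins, a step that an array of total RNA does not measure.

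The members were taken as the array rows whose gene name starts with Mrpl or Mrps and a digit, large and small subunit proteins by name, with the probe of highest mean log2 signal standing for each gene. This gave 76 of 27343 gene names, read by 126 probes, and all 76 were well above background on all 14 arrays. Each array held total RNA of mouse blood-forming cells, labelled with Cy3. The groups were Vav1-cre; Rheb1fl/fl myeloid cells (Rheb1-/-, 3 arrays) and wild-type myeloid cells (3 arrays), Rheb1-/- and wild-type myeloid progenitors (3 arrays each), and Rheb1-/- and wild-type hematopoietic stem cells (1 array each). Vav1-cre is active throughout the blood system, not in myeloid cells alone. No age is given in the labels, which also tie no array to an animal, so that p-values measure the spread between these samples. Rheb1 (symbol Rheb) encodes the small GTPase that activates mTORC1, and the study asks about its part in macrophage differentiation. Values below are log2 processed signal minus the array's 75th percentile, and a level of 0 is therefore the signal of a probe at that percentile.

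Rheb itself averaged 2.27 ± 0.14 in Rheb1-/- and 3.16 ± 0.40 in wild-type myeloid cells, and 2.88 ± 0.37 in Rheb1-/- and 3.96 ± 0.13 in wild-type progenitors (SD, n = 3 each). It was lower in Rheb1-/- by 0.88 in myeloid cells (adjusted p = 0.0121, limma), and the difference of -1.08 in progenitors did not pass (adjusted p = 0.0951, limma). Whether its probe lies in the deleted part was not determined. All 11 markers of myeloid cells and all 6 of myeloid progenitors were above background in every group, so their presence does not tell the cell types apart, whereas their levels differed as given below. All 7 stem cell markers were above background on both stem cell arrays. By slide barcode there were 4 slides. All Rheb1-/- myeloid arrays shared slide 4 with Rheb1-/- progenitor array 3, whereas all wild-type myeloid arrays shared slide 1 with the Rheb1-/- stem cell array. Slide 3 carried both genotypes of progenitors (arrays 1 and 2 of Rheb1-/-, arrays 2 and 3 of wild type), and the remaining wild-type arrays, 1 of progenitors and 1 of stem cells, were on slide 2. For myeloid and for stem cells, slide and genotype therefore cannot be told apart. In bulk samples, fewer cells of a type and less RNA per cell cannot be told apart either.

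Promoters of 6 members are shown, chosen with their values known, because these genes carry differences described below: Mrps5, Mrps2, Mrpl12, Mrpl17 and Mrpl52 are among the largest rises in Rheb1-/- myeloid cells and Mrpl33 is the 1 fall. The stretches are the 150 bases before the annotated start, 5′ to 3′ along the gene, from RefSeq windows on GRCm38.p6. Capitals mark a match to the NRF1 motif (that of a nuclear activator of mitochondrial genes) or to CCGGAAG (the motif of ETS factors, among them GABPA, another such activator), on either strand.
Mrps5: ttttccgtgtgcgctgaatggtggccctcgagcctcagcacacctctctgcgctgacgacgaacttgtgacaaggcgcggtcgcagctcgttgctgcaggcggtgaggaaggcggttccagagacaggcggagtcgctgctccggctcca
Mrps2: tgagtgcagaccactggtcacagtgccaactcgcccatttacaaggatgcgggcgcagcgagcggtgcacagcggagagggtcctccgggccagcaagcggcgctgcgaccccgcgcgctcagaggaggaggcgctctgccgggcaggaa
Mrpl12: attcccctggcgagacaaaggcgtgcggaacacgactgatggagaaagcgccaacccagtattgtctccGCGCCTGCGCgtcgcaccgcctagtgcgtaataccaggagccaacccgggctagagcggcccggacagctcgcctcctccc
Mrpl17: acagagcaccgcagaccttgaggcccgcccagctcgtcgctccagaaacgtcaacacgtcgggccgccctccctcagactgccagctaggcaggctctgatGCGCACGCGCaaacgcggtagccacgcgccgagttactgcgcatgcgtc
Mrpl52: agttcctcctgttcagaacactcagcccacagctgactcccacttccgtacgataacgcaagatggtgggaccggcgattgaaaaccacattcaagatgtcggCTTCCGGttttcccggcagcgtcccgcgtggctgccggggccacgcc
Mrpl33: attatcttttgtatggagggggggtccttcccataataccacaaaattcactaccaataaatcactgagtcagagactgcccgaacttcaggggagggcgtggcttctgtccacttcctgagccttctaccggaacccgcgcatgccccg
They lie at chr2:127587276-127587425 (Mrps5, plus strand), chr2:28467916-28468065 (Mrps2, plus), chr11:120484487-120484636 (Mrpl12, plus), chr7:105811088-105811237 (Mrpl17, minus), chr14:54426759-54426908 (Mrpl52, plus) and chr5:31613801-31613950 (Mrpl33, plus). The Mrpl12 stretch held an NRF1 match read along the gene, the Mrpl17 stretch one on the other strand, and the Mrpl52 stretch an ETS match on the other strand. G and C made up 64.7% of the Mrpl12 stretch, 64% of that of Mrps5 and 52.7% of that of Mrpl33.

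Windows of 300 bases, 250 before the start and 50 after it, were matched by symbol for 67 of the 76 members, and Mrpl4, Mrpl13, Mrpl15, Mrpl19, Mrpl38, Mrpl54, Mrps28, Mrps34 and Mrps35 were not matched. The ETS motif lay in the window of 23 members (34.3%), against 9.12% of 27025 genes. The NRF1 motif lay in 12 members (17.9%), against 4.78% of all genes. AAGATGGCG, the motif of YY1, a zinc finger factor with sites at many mitochondrial genes, lay in 8 members (11.9%), against 1.49% of all genes. CACGTG, the E-box that MYC family proteins bind, lay in 5 members (7.46%), against 7.24% of all genes. Each motif was searched on both strands and none of the 4 contains another. Median G and C content was 58% in the members' windows and 52.7% in those of all genes.

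A start site on the opposite strand within 1000 bases upstream, a head-to-head neighbour, was found for 25 of the 67 members (37.3%), against 11.4% of all genes. Mrps11 and Mrpl46 are such neighbours of each other, with 42 bases between their starts, and Mrpl43 lies 116 bases from Twnk, which encodes the helicase of mitochondrial DNA. Set against the rises in Rheb1-/- myeloid cells described next, the ETS motif lay in 7 of 20 such members with a window (35%) and in 15 of 46 that were not called (32.6%), and the NRF1 motif in 3 of 20 (15%) and 9 of 46 (19.6%). The YY1 motif lay in 1 of 20 (5%) and 7 of 46 (15.2%), the E-box in 0 of 20 and 5 of 46 (10.9%), and a head-to-head neighbour in 6 of 20 (30%) and 19 of 46 (41.3%). These shares rest on few genes and were not tested.

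The level of the members differed most between cell types. Their median was 2.26, 2.43 and 2.34 on the Rheb1-/- myeloid arrays and 2.28, 2.17 and 1.98 on the wild-type myeloid arrays. In progenitors it was 3.27 ± 0.07 in Rheb1-/- and 3.25 ± 0.04 in wild type (SD of the array medians, n = 3 each), and in stem cells 2.81 in Rheb1-/- and 2.70 in wild type. Stem cells thus lay between myeloid cells and progenitors, and the 2 myeloid genotypes overlapped by 1 array each. On the progenitor arrays 73 to 75 of the 76 members stood above their own mean over the 14 arrays, on the myeloid arrays 1 to 8 did, and on the stem cell arrays 36 in Rheb1-/- and 28 in wild type.

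**Figure D1:**
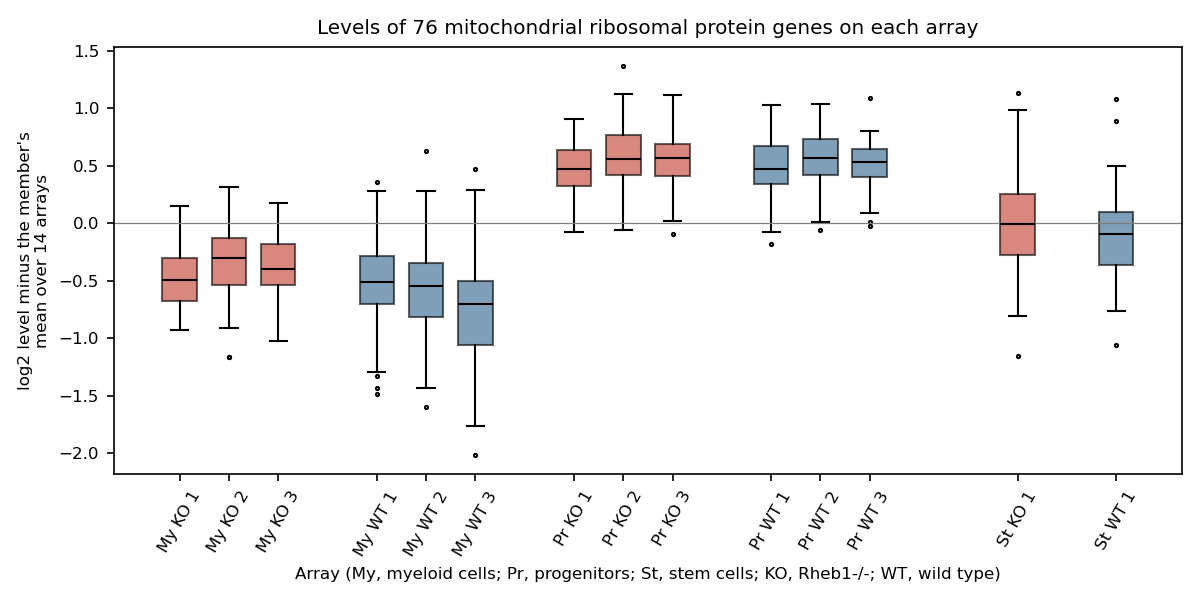
Boxes give the 76 members' log2 levels on each of the 14 arrays, each member minus its own mean over the arrays (median, quartiles, whiskers to 1.5 interquartile ranges, points beyond); red is Rheb1-/- and blue is wild type. The progenitor medians lie near 0.5, the myeloid medians between -0.31 and -0.70, and the stem cell medians near 0.

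In myeloid cells, 24 members rose in Rheb1-/- relative to wild type, 1 fell and 51 were not called (limma over 17727 genes, Benjamini-Hochberg adjusted p under 0.05). Thus 31.6% of the members rose, where among all genes tested 16.7% rose and 17.6% fell. The members' median difference was 0.23 on the log2 scale, a fold of 1.17, and that of all genes was -0.08. In 63 of the 76 the difference was above 0, and in 34 all Rheb1-/- arrays lay above all wild-type arrays (21.3% of all genes) and in 2 below (28.8%). Small and large subunit proteins had 8 of 26 and 16 of 49 members higher, with medians of 0.24 and 0.23. The changes were small, and Mrps5 was the 1 member past 2-fold.

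Mrps5, a small subunit protein with a bacterial counterpart that lies near the mRNA path, had levels of 0.59, 1.32 and 0.48 in Rheb1-/- and 0.07, -0.26 and -0.42 in wild-type myeloid cells. The groups did not overlap, and Rheb1-/- array 2 stood apart from the others. The difference was 1.00 ± 0.25 (SE; adjusted p = 0.0122, limma). Of its 3 other probes, 2 rose as well, by 0.60 and 0.55 (adjusted p = 0.0398 and 0.0102, limma over all probes), and the dimmest differed by 0.07.

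Mrpl19, a large subunit protein that in bacteria sits at the face between the subunits, had levels of 1.65, 1.64 and 1.64 in Rheb1-/- and 1.13, 0.87 and 0.71 in wild-type myeloid cells. The Rheb1-/- arrays were nearly equal and lay above all wild-type arrays. It rose by 0.74 ± 0.11 (SE; adjusted p = 0.00112, limma). Mrps28, a small subunit protein, had 3.03, 3.20 and 3.27 in Rheb1-/- and 2.41, 2.66 and 2.40 in wild type. Its groups did not overlap either, and it rose by 0.67 ± 0.10 (SE; adjusted p = 0.00132, limma). Mrpl12, which forms the stalk that recruits translation factors and also binds the mitochondrial RNA polymerase, had 3.01, 3.05 and 2.87 in Rheb1-/- and 2.46, 2.36 and 2.29 in wild type. It rose by 0.61 ± 0.10 (SE; adjusted p = 0.00217, limma), again without overlap. Each of these 3 genes was read by 1 probe, at chr6:81911970-81912029 (Mrpl19), chr3:8802222-8802281 (Mrps28) and chr11:120349740-120349799 (Mrpl12) in mm9.

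Mrps2, a small subunit protein that all ribosomes of bacterial type share, depended on the probe. Its brightest probe, at chr2:28326283-28326342 in mm9, had 0.34, 0.45 and 0.64 in Rheb1-/- and -0.03, -0.14 and -0.27 in wild-type myeloid cells and rose by 0.63 ± 0.10 (SE; adjusted p = 0.00155, limma). Its other 2 probes, at chr2:28325545-28325604 and chr2:28324181-28324240, differed by -0.21 and -0.24 and did not pass (adjusted p = 0.15 and 0.435, limma over all probes). With the mean of the 3 probes the difference was 0.06 and no longer passed.

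Mrps6, which in bacteria pairs with the S18 protein on the small subunit, had 0.83, 0.55 and 0.75 in Rheb1-/- and 0.23, 0.34 and 0.31 in wild type. It rose by 0.41 ± 0.10 (SE; adjusted p = 0.00895, limma), and its second probe rose by 0.68. Mrpl3, which lies near the peptide-bond-forming centre, had 2.40, 2.42 and 2.58 in Rheb1-/- and 2.27, 2.00 and 1.75 in wild type, with a difference of 0.46 ± 0.13 (SE; adjusted p = 0.0195, limma). One of its 3 other probes rose as well, by 0.39. Mrpl17 of the large subunit (0.46), Mrpl52, a large subunit protein without a bacterial counterpart (0.45), and Mrps35, its like in the small subunit (0.41), completed the 10 largest rises, and none of the 3 overlapped between genotypes. A dimmer probe of Mrpl17 differed by 0.04 and one of Mrpl52 by -0.41, and neither passed (adjusted p = 0.816 and 0.155, limma over all probes). Of 12 fits with 1 array left out, Mrpl17 passed in 12, Mrpl52 in 10, Mrpl3 in 9 and Mrps35 in 8. These 12 include the fits without a progenitor array, in which the myeloid difference itself stays the same. The other 14 called rises ran down to 0.23, that of Mrps12, and among them was Mrpl44 (0.32), a large subunit protein with an RNase fold.

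Mrpl33, a short large subunit protein and the 1 member that fell, had 7.30, 7.46 and 7.32 in Rheb1-/- and 7.50, 7.77 and 7.62 in wild-type myeloid cells. The groups lay close but did not overlap, and the difference was -0.27 ± 0.09 (SE; adjusted p = 0.0471, limma). The call passed in 9 of 23 other settings, and quantile normalization gave -0.57. Its second probe was above background on only 3 arrays, so its difference of -1.08 gives no reliable fold. Mrpl10, the stalk base to which Mrpl12 attaches, had the lowest difference of all members and did not pass (-0.30 ± 0.11 SE, adjusted p = 0.0578, limma).

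**Figure D2:**
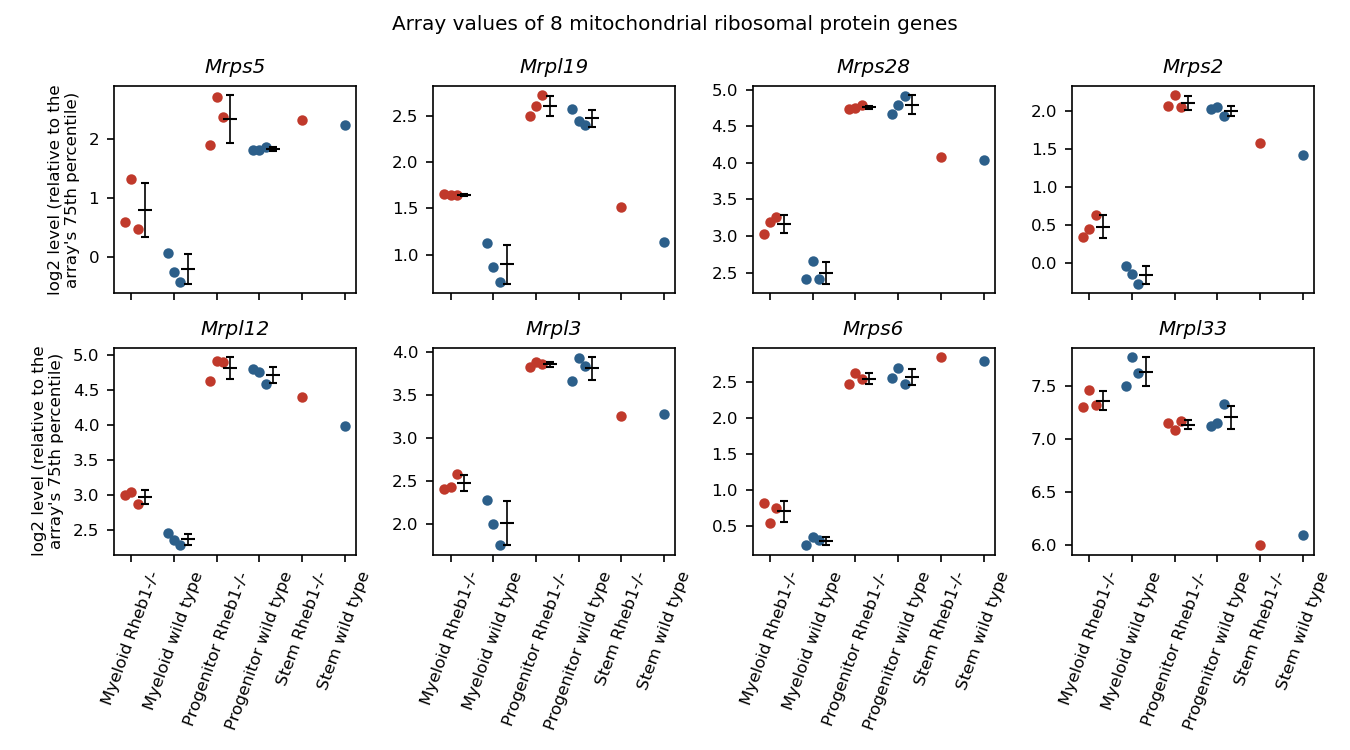
Points are the log2 levels of 8 members on single arrays, by cell type and genotype (red Rheb1-/-, blue wild type), with the mean and SD beside groups of 3. Mrps5, Mrpl19, Mrps28, Mrps2, Mrpl12, Mrpl3 and Mrps6 are lowest in wild-type myeloid cells, and Mrpl33 is highest there.

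Of 20 further probes of the called members, 16 differed in the same direction, 5 of them passed and 0 passed in the opposite one, and of 28 further probes of members not called 4 passed. Among the 5 was the second probe of Mrpl33, which was above background on only 3 arrays. Of all genes 34.2% were called in this comparison, and the share of all probes was not counted. The count of called members moved with single arrays: it was 9 without wild-type myeloid array 3, 14 without wild-type myeloid array 2, 12 without Rheb1-/- myeloid array 2 and 12 without Rheb1-/- myeloid array 3. The share of members that rose was then 11.8%, 18.4%, 13.2% and 15.8%, and that of all genes 13.3%, 13.4%, 13.2% and 12.9% in the same order. A fit to the 6 myeloid arrays alone called 8 members, all higher (10.5%), where 12% of all genes were higher and 16.2% lower. The members' share of rises was thus at or below that of all genes in 3 of these 5 fits, and above it without wild-type myeloid array 2 and without Rheb1-/- myeloid array 3. The 8 members Mrps5, Mrpl19, Mrps28, Mrps2, Mrpl12, Mrpl17, Mrps6 and Mrpl44 passed in each of the 12 fits that left out 1 array. Leaving out a progenitor array changes only the shared spread, not the myeloid difference. Only the fits without a myeloid array therefore show how the difference depends on single arrays.

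Other genes moved between the same myeloid arrays. Of 20 proliferation genes, such as the replication helicase gene Mcm6 (0.90) and Pcna (0.77), 14 rose and 0 fell in Rheb1-/-, with a median of 0.66. Their summed level, in units of the array's 75th percentile, was 472.6 to 566.7 on Rheb1-/- and 316.3 to 362.6 on wild-type arrays. Of 6 progenitor markers 5 rose and 0 fell (Prtn3 1.61, Ctsg 1.38, Elane 1.12, all proteases of primary granules, Kit 0.89 and Mpo 0.62), with sums of 1039 to 1430 on Rheb1-/- and 597 to 720 on wild-type arrays. Of 11 myeloid markers 1 rose (Cd14, 2.20) and 1 fell (Csf1r, -0.58), with sums of 2945 to 3623 on Rheb1-/- and 3498 to 3839 on wild-type arrays. Erythroid markers fell in 4 of 5 genes (sums of 101 to 447 on Rheb1-/- and 729 to 1170 on wild-type arrays) and B cell markers in 3 of 5 (5.52 to 7.17 on Rheb1-/- and 10.5 to 20.2 on wild-type arrays). T and NK cell markers fell in 4 of 7 genes and rose in 1 (sums of 41.4 to 59.7 on Rheb1-/- and 20.8 to 27.8 on wild-type arrays). The T and NK cell marker that rose was Nkg7 (1.27), a granule protein of killer cells. Markers of megakaryocytes and platelets (4 of 6), of eosinophils, basophils and mast cells (3 of 5), of dendritic cells (1 of 5) and of stem cells (1 of 7) fell as well. The part of these genes, and of the cells they mark, in the members' difference was not tested.

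**Figure D3:**
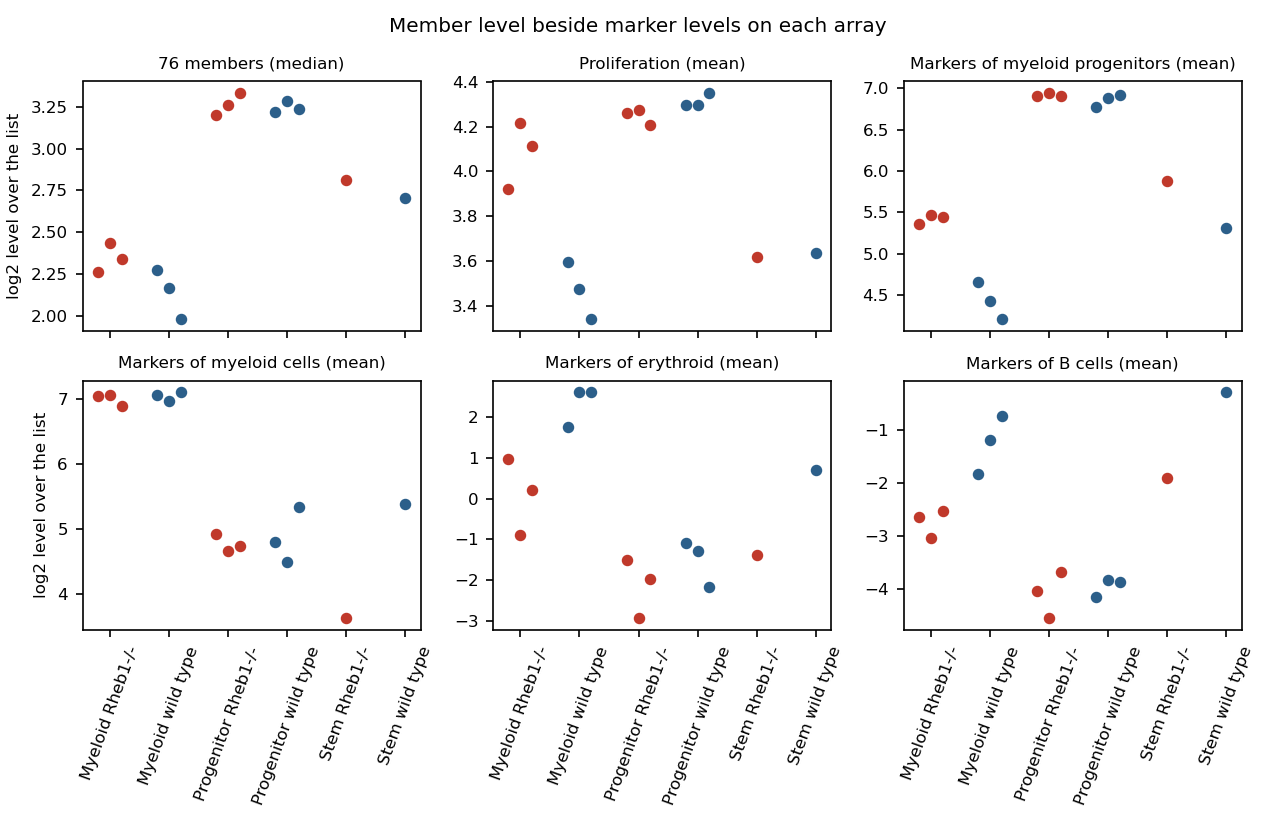
Each panel gives the log2 level over a list on every array (median for the 76 members, mean for the other lists), by cell type and genotype (red Rheb1-/-, blue wild type). The proliferation and progenitor marker levels are higher on all Rheb1-/- myeloid arrays than on all wild-type ones, the erythroid and B cell levels are lower, and the members' medians overlap by 1 array of each genotype.

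In myeloid progenitors, 0 members were called, and 0.0733% of all genes were (13 of 17727, limma; 0.0508% higher and 0.0226% lower). The arrays of the genotypes did not overlap for 4 members that lay higher in Rheb1-/- (11.5% of all genes) and 8 that lay lower (8.52%). The members' median difference, Rheb1-/- minus wild type, was 0.01, and that of all genes 0.02. By an unadjusted p under 0.05, 1 member passed, Mrpl52, with levels of 4.61, 4.73 and 4.66 in Rheb1-/- and 4.29, 4.41 and 4.44 in wild type (0.28 ± 0.12 SE, adjusted p = 0.363, limma). The next by p were Mrpl41, a mitochondria-specific large subunit protein (-0.20), Mrps5 (0.50), Mrpl17 (0.18) and Mrpl27 (-0.19). Mrps5 had 1.90, 2.70 and 2.37 in Rheb1-/- and 1.81, 1.80 and 1.86 in wild-type progenitors, so that the Rheb1-/- arrays all lay above and were widely spread. On slide 3 alone, with 2 arrays of each genotype, 0 members were called and the median was -0.03. The median SE of a member's difference was 0.10 in both cell types. The fit gives each gene 1 spread over all 12 arrays, so this SE does not compare the spread of the cell types.

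**Figure D4:**
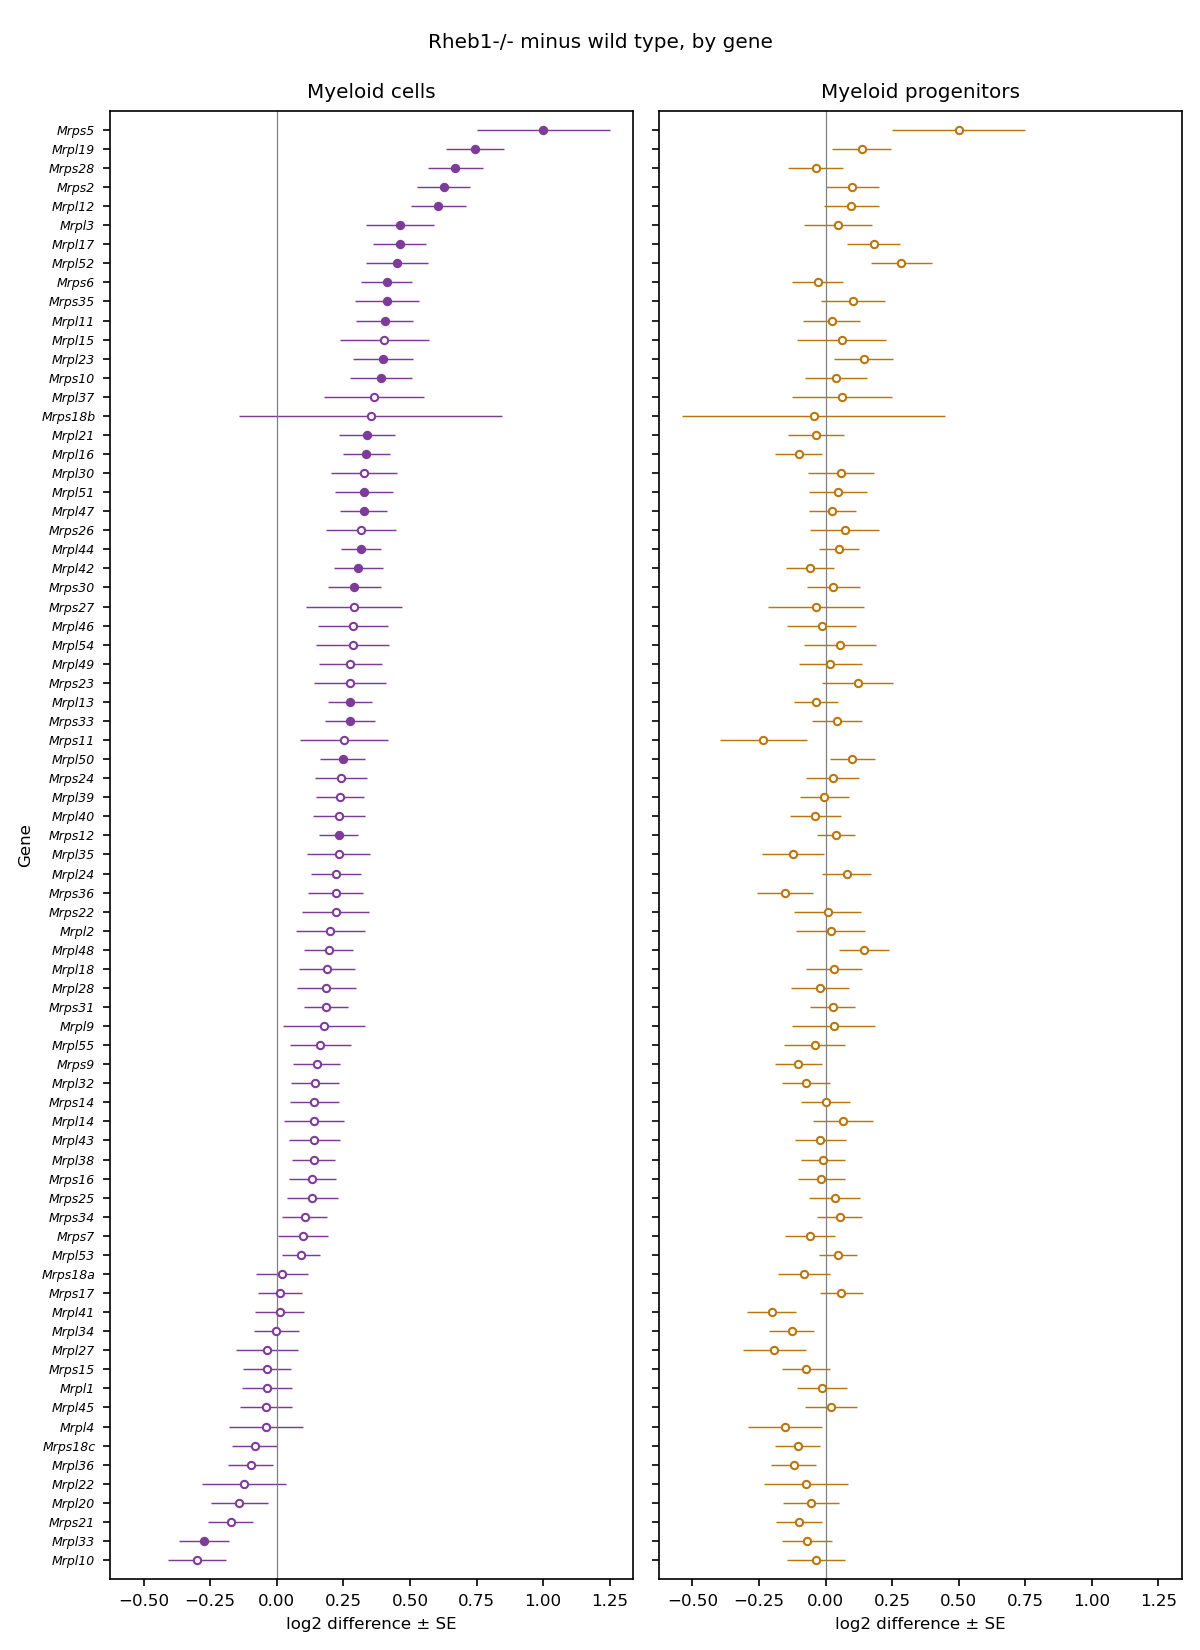
Points are the log2 differences of the 76 members, Rheb1-/- minus wild type, with SE, in myeloid cells (left) and myeloid progenitors (right), sorted by the myeloid value; filled points passed at an adjusted p under 0.05. In myeloid cells 25 points are filled, most of them above 0, and in progenitors 0 are filled and the points lie on both sides of 0.

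The difference between the genotype effects, myeloid cells minus progenitors, passed for 3 members, each higher (5.62% of all genes tested were called higher and 5.45% lower). Mrps28 differed by 0.71 ± 0.15 (SE; adjusted p = 0.0191, limma), since its genotype difference was 0.67 in myeloid cells and -0.04 in progenitors. Mrpl19 differed by 0.61 ± 0.16 (SE; adjusted p = 0.037) and Mrps2 by 0.53 ± 0.14 (SE; adjusted p = 0.0425). Mrpl16, which lies near the peptide-bond-forming centre (0.44, adjusted p = 0.0511), and Mrpl12 (0.51, adjusted p = 0.0516) were next and did not pass. The median over members was 0.21, against -0.08 for all genes, and the value was above 0 for 68 of 76 members. Mrps28 passed in all 22 other settings, Mrpl19 in 10 and Mrps2 in 8, and with the mean of its probes Mrps2 turned to -0.21. Mrpl19 lost the call in 9 of the 12 fits without 1 array and Mrps2 in 10. For the other 73 members, read by the brightest probe, the effect in myeloid cells was not shown to differ from that in progenitors. Of 46 further probes of members not called, 4 passed, where 11.1% of all genes were called and the share of all probes was not counted. Among those 4 were probes of Mrpl38 at 0.50 and 0.56 (adjusted p = 0.0456 and 0.0411, limma over all probes), whose brightest probe gave 0.15. Of 2 further probes of the called members, 0 differed in the same direction.

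Between cell types nearly all members fell. In Rheb1-/-, 71 of 76 members were lower in myeloid cells than in progenitors and 0 higher, where 38.3% of all genes were lower and 30.3% higher (68.6% called). The members' median difference was -0.94, against -0.08 for all genes. In wild type, 72 were lower and 1 higher, where 38.4% of all genes were lower and 39.5% higher (77.9% called). The median was -1.11, against 0.07 for all genes. All Rheb1-/- myeloid arrays lay below all Rheb1-/- progenitor arrays for 72 members (40.5% of all genes) and above them for 1 (32.7%). All wild-type myeloid arrays lay below all wild-type progenitor arrays for 72 members (39.1%) and above them for 2 (40.9%).

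Mrpl12 was the lowest in both genotypes, at -1.84 ± 0.10 in Rheb1-/- and -2.35 ± 0.10 in wild type (SE; adjusted p = 2.12e-07 and 2.44e-08, limma). Its wild-type levels were 2.46, 2.36 and 2.29 in myeloid cells and 4.81, 4.76 and 4.59 in progenitors, a 5.10-fold difference of the means. Mrps6 fell by 1.84 in Rheb1-/- and by 2.28 in wild type, and Mrps28 by 1.60 in Rheb1-/- and 2.31 in wild type. Mrpl38, a large subunit protein without a bacterial counterpart, fell by 1.70 in Rheb1-/- myeloid cells, whose arrays lay at -0.27, -0.22 and -0.36, against 1.38, 1.46 and 1.42 in Rheb1-/- progenitors. Mrps2 fell by 1.62 in Rheb1-/- and 2.15 in wild type by its brightest probe, and Mrps5 fell by 2.03 in wild type, as did its 3 other probes (by 1.95 to 2.20).

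A few members did not follow. Mrpl33 was higher in wild-type myeloid cells, at the levels above, than in wild-type progenitors, at 7.13, 7.15 and 7.33, by 0.43 ± 0.09 (SE; adjusted p = 0.00177, limma), and in Rheb1-/- its 0.23 did not pass (adjusted p = 0.0539). Mrpl10, Mrpl14 and Mrps21 passed in neither genotype, with differences of -0.12, -0.09 and -0.03 in Rheb1-/- and 0.15, -0.16 and 0.05 in wild type, and Mrpl52 (-0.23) passed in wild type (-0.39) and not in Rheb1-/-, and that contrast between genotypes itself did not pass (0.17, adjusted p = 0.52, limma). Of 48 further probes 43 differed in the same direction as the brightest probe in wild type, and 2 passed in the opposite direction, 1 of Mrps2 (1.30) and 1 of Mrps15 (0.39).

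In Rheb1-/-, slide 4 held 3 myeloid arrays and 1 progenitor array, and a fit there called 59 members lower and 0 higher, where 25.6% of all genes were lower and 20.3% higher. The lone progenitor array was assumed to vary like the myeloid arrays. In wild type no slide held both cell types.

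Other lists moved in the same comparisons. Proliferation genes were lower in 9 of 20 and higher in 5 in Rheb1-/- myeloid cells relative to progenitors (median -0.13), and lower in 14 and higher in 0 in wild type (median -0.86). Progenitor markers were lower in 5 of 6 in Rheb1-/- and 6 of 6 in wild type, and myeloid markers higher in 10 of 11 in Rheb1-/- and 11 of 11 in wild type. Erythroid markers were higher in 3 of 5 and lower in 2 in Rheb1-/- (sums of 101 to 447 in myeloid cells and 2.30 to 12.8 in progenitors), and higher in 3 and lower in 0 in wild type (sums of 729 to 1170 in myeloid cells and 5.72 to 16.1 in progenitors). B cell markers were higher in 3 of 5 in Rheb1-/- and 4 of 5 in wild type (medians of 1.52 and 3.18), and all 5 markers of eosinophils, basophils and mast cells were lower in each genotype (medians of -4.28 in Rheb1-/- and -3.80 in wild type). Dendritic cell markers were higher in 3 of 5 in Rheb1-/- and 4 of 5 in wild type, and T and NK cell markers in 4 of 7 in Rheb1-/- and 6 of 7 in wild type. Markers of megakaryocytes and platelets were lower in 5 of 6 in each genotype. The part of these cells in the members' difference was not tested.

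Over the subunits, 25 of 26 small and 46 of 49 large members were lower in wild-type myeloid cells, and by class the medians ran from -1.03 for large subunit proteins with a bacterial counterpart to -1.27 for small subunit proteins with one.

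**Figure D5:**
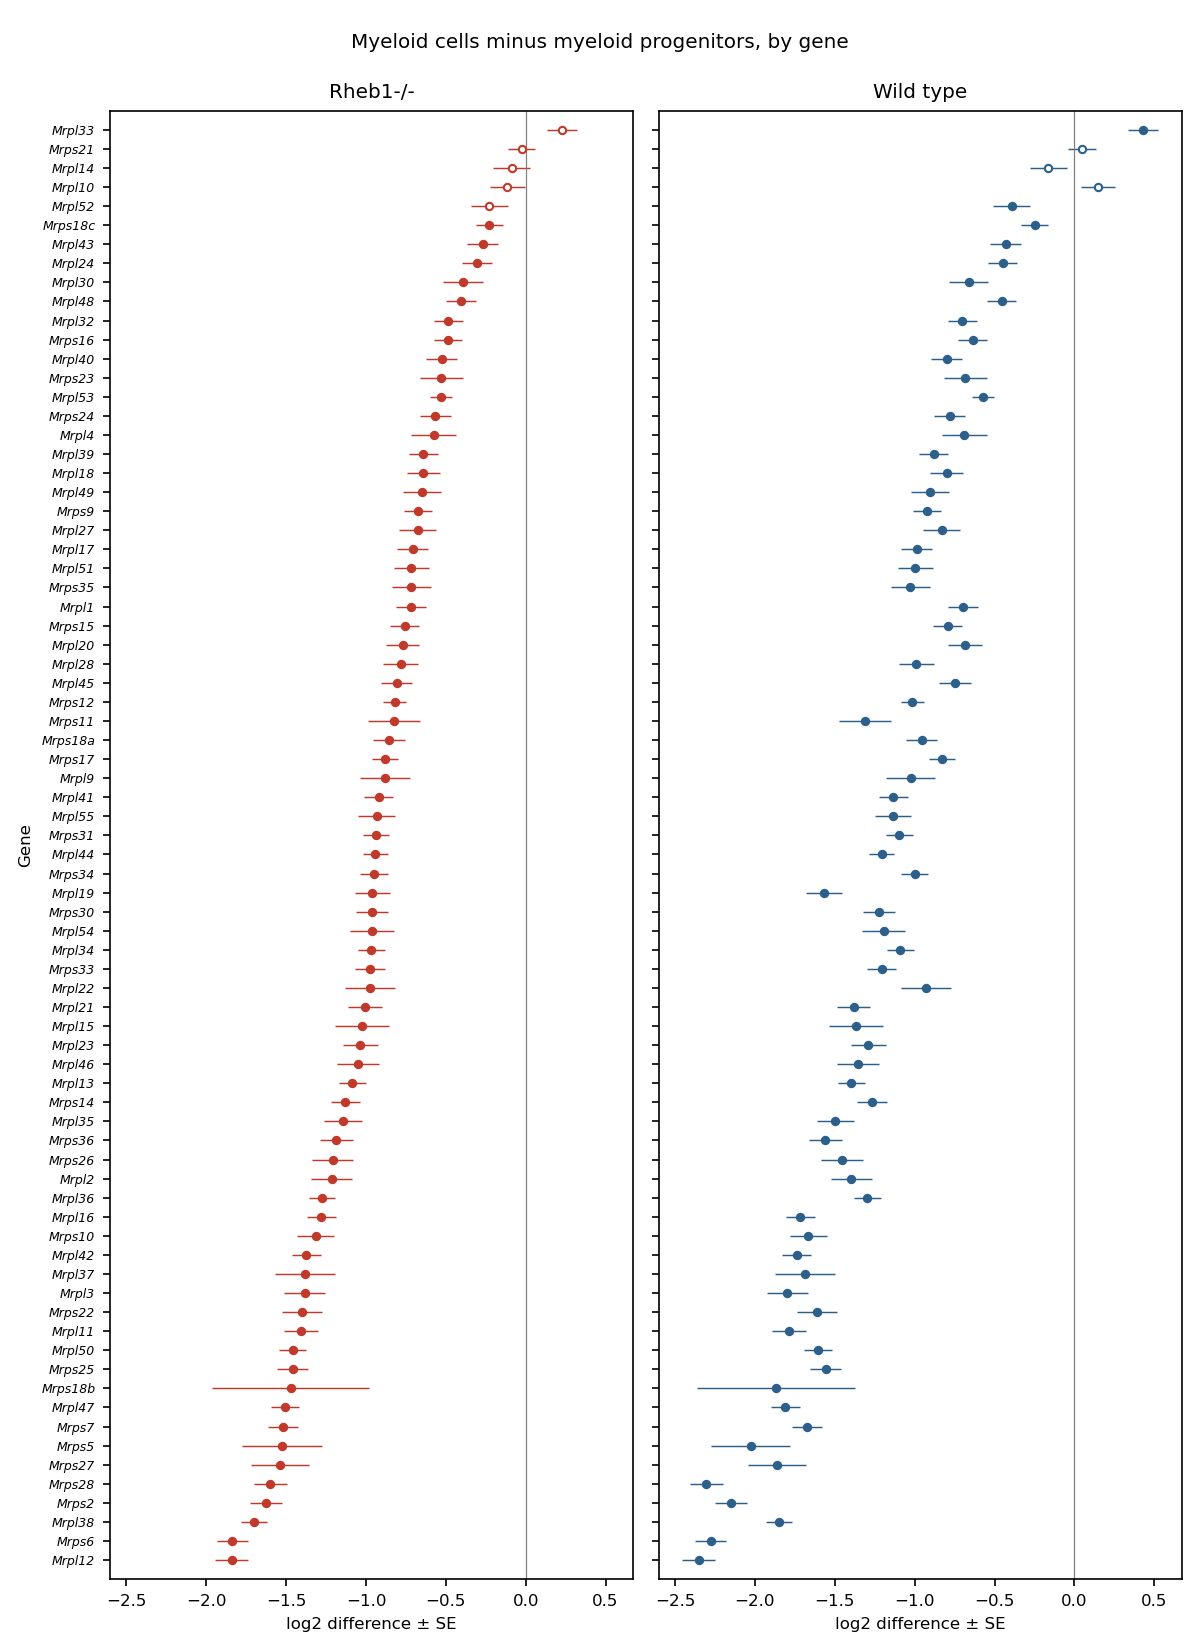
Points are the log2 differences of the 76 members, myeloid cells minus myeloid progenitors, with SE, in Rheb1-/- (left) and wild type (right), sorted by the Rheb1-/- value; filled points passed at an adjusted p under 0.05. Almost all points lie below 0 in both genotypes, with Mrpl12 at -1.84 and -2.35, and Mrpl33 lies at 0.23 and 0.43.

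The stem cell arrays, 1 of each genotype, allow no test. Past 1.5-fold, 1 of 76 members was higher in Rheb1-/- and 0 were lower, where 15.2% and 10.3% of 16661 genes were. The median difference was 0.10, against 0.12 for all genes. The 1 member was Mrps18b, at -0.45 in Rheb1-/- and -1.18 in wild type, a gene whose 3 wild-type myeloid arrays lay at -2.09, -0.51 and -2.81. The next were Mrpl38 (0.48), Mrpl2, which lies beside the peptide-bond-forming centre (0.47), Mrps27, a pentatricopeptide repeat protein (0.43), and Mrpl12 (0.42). The lowest were Mrps18c and Mrps11 (-0.26 each), Mrpl43 (-0.23), Mrpl9 and Mrpl30 (-0.22 each). Between these 2 arrays the summed myeloid markers were 678 in Rheb1-/- and 1373 in wild type, and the erythroid ones 12.4 in Rheb1-/- and 78.2 in wild type. In the same order, sums were 24.8 and 203 for eosinophil, basophil and mast cell markers, 15.3 and 76.6 for dendritic and 13.8 and 28.5 for B cell markers. Sums were higher in Rheb1-/- for progenitor markers (813 and 558) and T and NK cell markers (44.2 and 33.0). Stem cell markers (28.0 and 26.7) and those of megakaryocytes and platelets (14.2 and 14.6) lay close. Their part in the members' values was not tested.

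The 3 paralogs of the bacterial S18 protein are bound at different places of the particle, and the product of Mrps18a lies in the large subunit despite its name. None passed for genotype in either cell type. In myeloid cells Mrps18a differed by 0.02 ± 0.10, Mrps18b by 0.35 ± 0.49 and Mrps18c by -0.08 ± 0.09 (SE), and Mrps18a and Mrps18b turned below 0 without wild-type myeloid array 3 (-0.05 and -0.15). In wild type, myeloid cells were below progenitors in all 3, by 0.96 for Mrps18a, 1.87 for Mrps18b and 0.25 for Mrps18c, each past the threshold. Mrps36, whose product is now known as a subunit of the 2-oxoglutarate dehydrogenase complex, averaged 1.68 ± 0.17 in Rheb1-/- and 1.46 ± 0.14 in wild-type myeloid cells (SD, n = 3 each) and was not called, so counts of calls by genotype are the same without it.

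Mitoribosomal proteins whose genes carry other names were read apart from the 76. Of 7 such genes, 3 rose in Rheb1-/- myeloid cells and 0 fell: Ptcd3, a small subunit protein of the pentatricopeptide family (0.56), Chchd1 (0.31) and Gadd45gip1 (0.33), and 6 of 7 were lower in myeloid cells than in progenitors in each genotype. Dap3, the small subunit GTPase-fold protein, differed by -0.10 in Rheb1-/- myeloid cells and was not called.

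The genes that work with the particle were described in the same way. Of 11 mitochondrial translation factors 6 rose in Rheb1-/- myeloid cells and 0 fell, with a median of 0.28. Guf1, the mitochondrial LepA-type GTPase (0.66), Mtrf1, a release factor (0.54), and Mrrf, the ribosome recycling factor (0.52), had the smallest p. In myeloid cells 10 of 11 were lower than in progenitors in each genotype. Of 25 assembly and rRNA modification genes 5 rose and 2 fell in Rheb1-/- myeloid cells. Tfb1m, the methyltransferase of the small rRNA, rose by 0.92, whereas Nsun4, which also methylates that rRNA and helps join the subunits, fell by 0.64 and Ngrn, a regulator of the large rRNA, by 0.74. Of 12 genes of mitochondrial DNA maintenance and expression 3 rose and 0 fell: Pnpt1 (0.49), Lrpprc (0.40) and Tfb2m (0.42), while Polrmt, the polymerase that makes the rRNAs, differed by -0.02. Of 4 genes of mitochondrial DNA on the array 3 rose in Rheb1-/- myeloid cells (ATP6 0.58, ND4 0.42, CYTB 0.42) and COX2 differed by 0.06. The files place the probes of ATP6 and COX2 on nuclear chromosome 1, where a copy of mitochondrial DNA lies, so these 2 are uncertain. Among 9 regulators of mitochondrial gene expression, Myc rose by 1.96, Pprc1, a coactivator of the PGC family, by 0.64 and Gabpa by 0.26, 0 fell, and Nrf1 (-0.26) and Yy1 (0.08) did not pass. In progenitors 0 genes of these 6 lists were called.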

How the data were processed

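Per the labels' protocols, total RNA of 14 samples was labelled with Cy3 and read on Agilent arrays in 1 colour. The spot intensity is the processed signal, which the scanner software corrected for background within each array, per the file headers. The headers name Feature Extraction 10.7.3.1 and the submitters' processing notes 9.1, and which applies is not settled. The deposited value table holds log2 values with nearly the same distribution in each column (largest difference between sorted columns 0.00234), as quantile normalization leaves them.

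Of 45018 spots, 1639 controls were left out, as were 79 to 195 outlier spots per array, and no spot was saturated. Spots were averaged to 41174 probes, log2 was taken and each array's 75th percentile subtracted. Names were updated through a RefSeq table of GRCm38.p6, and those of the 76 members stayed as in the files. Probe coordinates are in mm9, per the file headers. A gene was tested if 1 or more of the replicated groups had its probe well above background throughout, which left 17727. One mean per group was fitted to the 12 progenitor and myeloid arrays in limma 3.58.1 under R 4.3.3 (statmod 1.5.0), with 8 residual and 1.95 prior degrees of freedom and two-sided Benjamini-Hochberg adjustment over all genes, and the fit was tested on simulated data. Few arrays limit the precision.

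The members and gene lists were chosen with earlier results of these data known. Named members were, for each genotype comparison, the 10 largest rises and falls among those passing, or the 5 of smallest p where fewer than 5 passed, 5 each way between cell types and in stem cells, the Mrps18 paralogs, and up to 3 genes of smallest p per list; those of highest and lowest level were not used, since levels of different probes are not comparable. Mrpl44, Mrps12, Mrpl10, Mrpl14, Mrps21, Mrps15, Mrpl43 beside Twnk, Mrps11 beside Mrpl46, Dap3, COX2, Polrmt, Nrf1, Yy1 and the markers named were added after their values were seen.  Alternatives were other normalizations, filters, probe rules, blocks and fits, arrays left out, and 1 setting chosen after seeing the data. Promoter windows ran along the gene's strand in all 1668 overlapping pairs checked.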

Additional observations from a re-analysis of the deposited data

Results flagged for a closer look

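For 3 members the difference between Rheb1-/- and wild type itself differed between myeloid cells and myeloid progenitors, by the interaction term of the limma fit. These were 3.95% of the members, where 5.62% of all genes were called higher and 5.45% lower. The difference was 0.71 for Mrps28, 0.61 for Mrpl19 and 0.53 for Mrps2, with Rheb1-/- minus wild type at 0.67, 0.74 and 0.63 in myeloid cells and at -0.04, 0.14 and 0.10 in progenitors. Mrps28 passed in all 22 other settings, Mrpl19 in 10 and Mrps2 in 8, and Mrps2 turned to -0.21 with the mean of its probes. Groups of 3 arrays allow no test for a single array that stands apart.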

How the results depend on the processing

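Counts of called members kept within 1.5 times their reported values for progenitors and for both cell type comparisons in every setting tried. For Rheb1-/- against wild-type myeloid cells, 25 calls became 14 with no filter on dim genes (18.4% of members higher, 8.58% of all 27343 genes). They became 8 with only the 6 myeloid arrays (10.5% of members higher, 12% of all genes). With 1 array left out they ran from 9 to 28 (11.8% to 35.5% of members higher, 12.9% to 16.4% of all genes). For the difference between cell types, 3 calls became 1 with no filter, 1 with the replicate number as a block and 1 without the progenitor arrays that lay outside slide 3 (chosen after seeing the data), where 1.45%, 3.63% and 1.29% of all genes were called higher, against 5.62% as reported. They became 6 with a filter on all 12 arrays, 6 with slide as a random block and 6 with an intensity trend and a robust prior. That was 7.89% of members each time, against 8.84%, 7.47% and 7.47% of all genes called higher. The slide block had an estimated correlation of -0.119. It cannot separate slide from genotype in myeloid cells, whose genotypes share no slide. With 1 array left out the calls ran from 1 to 4, where 2.59% to 6.46% of all genes were called higher. The cause was not tested. Quantile normalization and the deposited table gave 3 higher and 1 lower there, the lower one Mrpl33 (-0.44 and -0.43). Of all genes, 7.73% and 7.68% were then called higher and 4.45% and 4.39% lower. The replicate block called 22 members in myeloid cells, all higher (28.9%, 15.7% of all genes). It called 0 in progenitors, where 0.0508% of all genes were higher and 0.0282% lower. Between cell types it called 71 in Rheb1-/-, all lower (93.4%, 37.9% of all genes). In wild type it called 73, of which 72 were lower (94.7%, 38% of all genes). Deviations of same-numbered arrays from their group means correlated between -0.154 and 0.133, over 0.1 in 2 of 18 pairs. Other pairs ran from -0.165 to 0.145, and whether same-numbered arrays share an animal is not known. In stem cells 1 member was past 1.5-fold, where 15.2% of all genes were higher and 10.3% lower, and this count moved with the probe rule and the fold. The share of all genes was not counted at those other settings. The progenitor median turned to -0.00133 with normexp, to -0.035 with slide as a fixed block, on slide 3 alone and without the same 2 progenitor arrays, and ran from -0.023 to 0.043 with 1 array left out. Mrps2 turned to -0.21 for the difference with the mean of its probes, and Mrps18a to -0.00569 in myeloid cells with normexp. Mrps18b in progenitors turned to 0.13 with slide fixed, on slide 3 alone and without the 2 progenitor arrays. With 1 array left out, Mrps18a ran from -0.052 to 0.111 and Mrps18b from -0.15 to 1.00 in myeloid cells, and Mrps18b from -0.215 to 0.051 in progenitors. Of 895 values of named members under other settings 819 kept direction and side of the threshold, 56 lost the call, 8 gained it and 12 changed sign. Fits without an array outside a comparison leave its difference unchanged. The total therefore overstates how far the calls were put to the test. The median of all genes in wild-type myeloid cells minus progenitors moved between -0.05 (quantile) and 0.15 (normexp).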
